A study of Mus musculus with 12 samples.

Results

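A set of 35 mouse genes for protein folding and early secretion in the endoplasmic reticulum (ER) was followed through 12 RNA-seq libraries of blood stem and progenitor cells that carried wild-type, knockout or mutant Tet2. The members were chosen by gene function, with earlier results of these data known, as the rows of the deposited count tables with one of 35 symbols. All 35 were among the 24538 genes of both tables, and all 35 passed the filter on low counts in every comparison. They comprise 9 chaperones and cochaperones, 2 lectin chaperones, 4 protein disulfide isomerases, 5 stress sensors and transcription factors, 7 subunits of the translocon and of the translocon-associated protein (TRAP) complex, 2 KDEL receptors and 6 genes of ER-associated degradation.

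Secreted and membrane proteins enter the ER through the Sec61 translocon, fold there with the help of BiP, GRP94, the calnexin cycle and disulfide isomerases, and leave in coated vesicles. KDEL receptors return escaped chaperones from the Golgi, and proteins that fail to fold are drawn out through the HRD1-SEL1L channel and degraded. When unfolded proteins accumulate, IRE1, ATF6 and PERK start the unfolded protein response through XBP1, cleaved ATF6 and ATF4. Granulocyte precursors make large amounts of granule proteins that pass through this route, whereas blood stem cells are known for low rates of protein synthesis.

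The 2 populations compared came from bone marrow. LSK cells are the lineage-negative, Sca-1-positive, Kit-positive fraction that holds the stem cells, and the second population is called MPP (multipotent progenitor) in the sample descriptions and Lin in the titles. Each was taken from mice with wild-type Tet2 (WT), with Tet2 knocked out (KO) or with a mutant Tet2 (Mut), all on a mixed 129/C57/B6 background and 10 weeks old. For every genotype the marrow of 2 mice was pooled, and the LSK and MPP cells of that pool each gave 2 technical libraries, so that the 6 groups hold 2 libraries each and errors describe libraries of one pool, not mice. The residues changed in Mut, the exons removed in KO and the sorting gates of MPP are not given in the sources used here. In bulk RNA, fewer cells of a kind and less RNA per cell cannot be told apart.

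Gene counts per library ran from 9181027 to 23532847. LSK WT was the least even group: the 35 members differed between its 2 libraries by a median of 0.29 on the log2 scale, against 0.11 to 0.14 in the other 5 groups, and 7 members differed by more than 2-fold, Hyou1 most. Tet2, which names the genotypes, was at 75.0 ± 17.4 CPM (counts scaled to 1000000 gene counts, after TMM; mean ± SD, n = 2) in LSK WT, 30.5 ± 1.82 in KO and 43.9 ± 0.639 in Mut. In MPP it was at 34.5 ± 7.22, 34.9 ± 0.00969 and 38.8 ± 1.97 CPM, so the level did not set the MPP libraries labelled KO apart from WT. A list of 11 stem cell and LSK genes summed to 3090 to 3811 CPM in LSK and 603 to 828 in MPP, while 10 granulocyte-monocyte progenitor genes summed to 2141 to 6191 and 48324 to 63270. The libraries labelled MPP thus carried little of the LSK genes (Ly6a, which encodes Sca-1, was at 10.4 to 20.5 CPM against 58.4 to 163) and much Mpo (30182 to 38129 CPM against 1522 to 4662). Spike-in RNA took 0.0822% to 0.229% of counts in LSK and 3.16% to 5.15% in MPP.

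The promoters are shown first because 10 of the genes carry an element through which ATF6 and XBP1 are known to act. A RefSeq promoter window of GRCm38.p6 (250 bases before to 50 after a start site) was found for 28 members, and both strands were searched. The ER stress response element (ERSE, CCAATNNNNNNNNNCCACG) occurred in the windows of 8 of these 28 genes and in 37 of all 27025 genes with a window (0.137%). The compact form ERSE-II (ATTGG, any 1 base, then CCACG), whose last 5 bases are those of ERSE, occurred in Dnajb11 and Herpud1 and in 12 genes in all (0.0444%). Windows of 0 members held the XBP1 element core (TGACGTGG, whose last 5 bases are those of ERSE on the opposite strand; 0.714% of genes held it), and Herpud1 and Kdelr1 held the ATF4 element core (TGATGNAA; 4.51% of genes). Below, the 250 bases before the start site are given 5′ to 3′ on the gene's strand for 4 members whose levels are described later, with the fixed bases of ERSE in capitals. An element that lies on the opposite strand reads CGTGG first and ATTGG last.
Hspa5 (chr2:34771840-34772089, plus strand): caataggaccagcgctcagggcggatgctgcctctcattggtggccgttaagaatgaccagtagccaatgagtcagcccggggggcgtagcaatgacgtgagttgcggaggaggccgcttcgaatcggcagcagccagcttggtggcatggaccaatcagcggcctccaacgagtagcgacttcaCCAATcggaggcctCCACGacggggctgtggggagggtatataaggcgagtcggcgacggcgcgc
Calr (chr8:84846932-84847181, minus strand): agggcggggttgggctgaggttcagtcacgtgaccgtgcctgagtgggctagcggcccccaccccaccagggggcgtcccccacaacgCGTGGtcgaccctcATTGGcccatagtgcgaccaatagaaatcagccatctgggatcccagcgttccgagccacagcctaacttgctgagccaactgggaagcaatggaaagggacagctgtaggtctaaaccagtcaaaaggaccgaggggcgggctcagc
Hsp90b1 (chr10:86705445-86705694, minus strand): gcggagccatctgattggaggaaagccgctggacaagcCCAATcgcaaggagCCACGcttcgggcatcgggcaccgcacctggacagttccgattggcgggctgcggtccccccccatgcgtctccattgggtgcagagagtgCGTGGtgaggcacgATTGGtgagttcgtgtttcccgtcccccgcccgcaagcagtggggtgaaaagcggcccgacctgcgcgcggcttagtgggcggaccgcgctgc
Syvn1 (chr19:6046326-6046575, plus strand): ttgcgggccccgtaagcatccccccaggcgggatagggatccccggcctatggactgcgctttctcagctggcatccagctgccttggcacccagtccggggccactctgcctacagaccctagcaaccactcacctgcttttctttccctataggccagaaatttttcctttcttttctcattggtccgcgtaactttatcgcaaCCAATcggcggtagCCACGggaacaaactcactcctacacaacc

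Hsp90b1 held 2 elements and the other 3 genes 1 each. The search took only exact matches to the fixed bases, so near matches count as absent here and below. The remaining ERSE sites, as they read on the gene's strand, show how the 9 bases between the fixed ends differ from gene to gene.
Canx: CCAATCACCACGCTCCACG
Creld2: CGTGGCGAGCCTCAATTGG
Dnajc3: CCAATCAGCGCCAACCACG
Pdia6: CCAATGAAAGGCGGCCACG
The ERSE-II sites can differ only at the central base, since the search fixed the other bases. The Dnajb11 site begins 7 bases after the start site.
Dnajb11: ATTGGCCCACG
Herpud1: ATTGGGCCACG
These matches describe letters in a window and do not show that a factor bound there. The members were chosen by function, with earlier results of these data known, so the counts beside those of all genes are not a test.

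Levels between genes were compared as CPM per kilobase of merged exons, averaged over the 6 groups. On that scale calreticulin (Calr) was first at 568, followed by P4hb at 459, Hspa5 at 403, Pdia3 at 297 and Sdf2l1 at 208. The sensors were at the other end, with Atf6 at 5.61 and Ern1, which encodes IRE1, at 3.96. Sec61g, the smallest subunit of the translocon, was last at 2.64, with 2.52 to 3.89 CPM in LSK and 7.51 to 12.51 in MPP, and its values are uncertain for that reason. As a share of all gene counts, the 35 genes together made up 0.674% ± 0.0349 (SD, n = 2) in the LSK cells of WT, 0.785% ± 0.0129 in those of KO and 0.851% ± 0.0197 in those of Mut. In MPP the shares were 1.71% ± 0.045 in WT, 1.67% ± 0.0219 in the libraries labelled KO and 1.66% ± 0.0287 in Mut. The 6 LSK libraries therefore lay below the 6 MPP libraries without overlap, and within LSK the order was WT, KO, Mut.

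**Figure D1:**
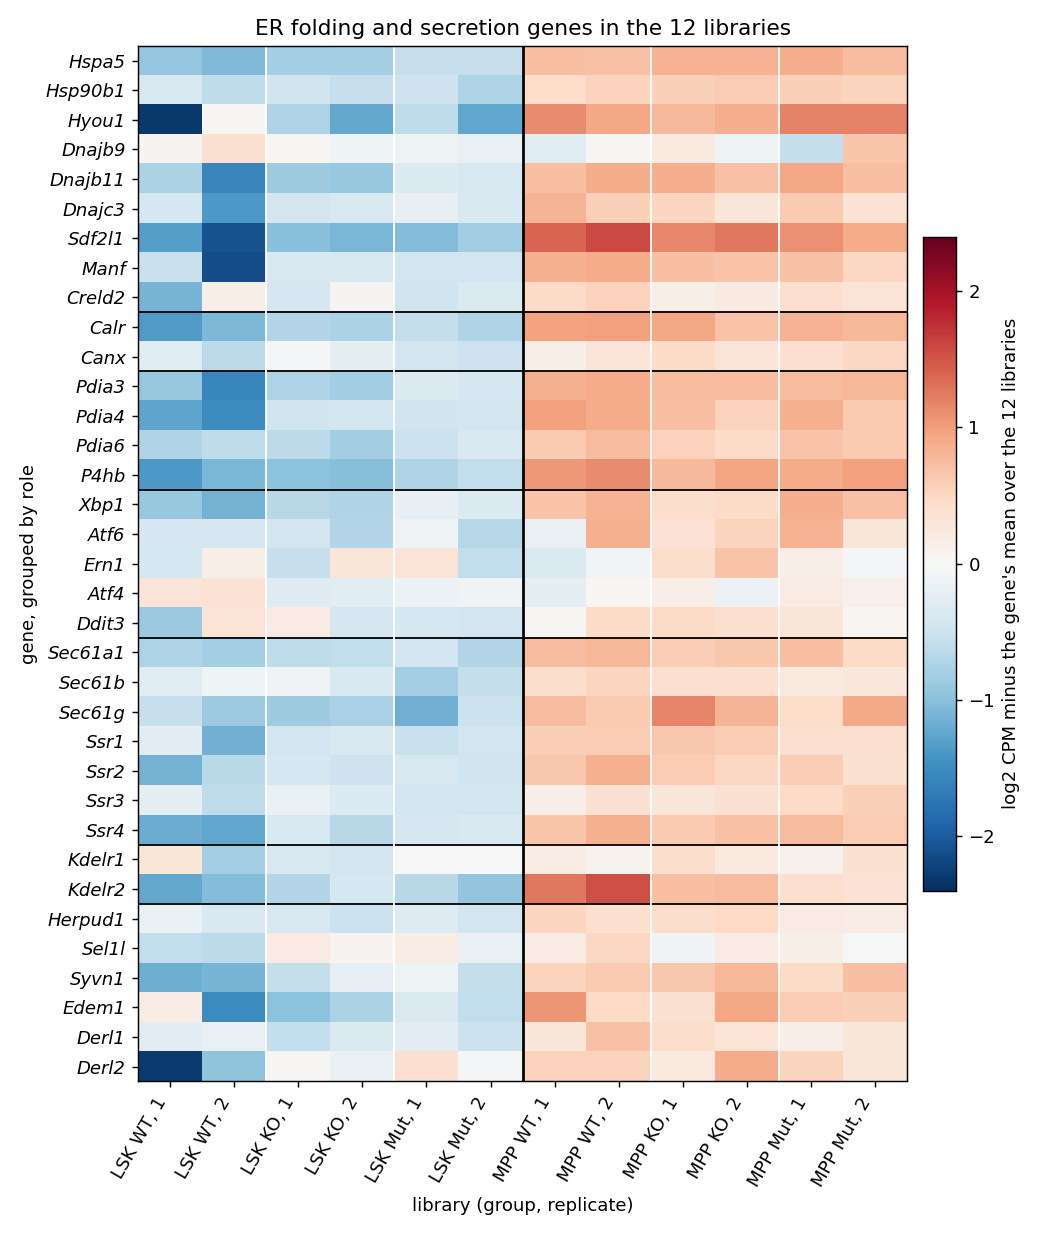
Heat map of the 35 genes (rows, grouped by role) in the 12 libraries (columns), coloured by log2 CPM minus the gene's own mean over the libraries. Most rows are blue (low) in the 6 LSK columns and red (high) in the 6 MPP columns on this CPM scale. The populations overlap in rows such as Atf4, Dnajb9, Ern1, Kdelr1, Sel1l and Ddit3. With spike-in scaling all 35 are higher in LSK in each genotype.

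The first comparison set LSK against MPP within each genotype, which asks how much ER folding machinery the stem cell fraction carries beside the second population. Differences are log2, LSK minus MPP, scaled by TMM (the trimmed mean of M values over genes, the edgeR default), so lower and higher are relative to the other genes of the library. In WT, 26 of the 35 members were lower in LSK and 1 was higher at a Benjamini-Hochberg adjusted p below 0.05 (edgeR quasi-likelihood test), where 13.7% of the 14033 genes tested were lower and 10.2% higher. In KO 22 were lower and 0 higher (8.14% and 7.03% of genes), and in Mut 21 were lower and 0 higher (5.21% and 3.55% of genes). The members' median was -1.40 in WT, -1.09 in KO and -0.96 in Mut, beside medians over all genes of 0.00, 0.05 and 0.03. A total of 20 members were lower in all 3 genotypes, which is 76.9% of the WT calls, 90.9% of the KO calls and 95.2% of the Mut calls, beside 3.69% of all genes. The genes of the set are abundant, and among the 5100 genes with a mean of at least 50 CPM, 24.8%, 16.8% and 10.4% were lower in LSK in WT, KO and Mut, against 25, 22 and 20 of the 31 members at that level.

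The direction depends on the scale. When libraries were scaled by their spike-ins, the median of all genes moved to 4.17, 4.66 and 5.88 in WT, KO and Mut, and all 35 members were called higher in LSK in each genotype, as were 81.5%, 85.4% and 89.5% of genes. Relative to that median the members stayed low, by -1.39, -1.13 and -1.05. All statements on LSK against MPP below are thus relative to the other genes, on the TMM scale. Spike-in scaling takes the amount of spike-in as equal for all libraries, which was not tested. The spike-in share was 0.139% and 0.0822% of counts in the 2 technical libraries of LSK Mut. Values on the spike-in scale are therefore not read as amounts of RNA per cell.

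Hspa5 encodes BiP, the Hsp70 chaperone of the ER lumen (chromosome 2, 34771970 to 34777547 of GRCm38 in GENCODE M21, whose gene start differs from that of the RefSeq window, plus strand). It was at 775 and 712 CPM in the LSK WT libraries, 836 and 845 in KO and 1003 and 1002 in Mut. The MPP libraries had 2444 and 2398 in WT, 2638 and 2624 in those labelled KO and 2684 and 2477 in Mut, all above every LSK library. The log2 difference was -1.70 (SE 0.0698, adjusted p = 6.37e-08) in WT, -1.65 (SE 0.0696, adjusted p = 1.14e-07) in KO and -1.36 (SE 0.0691, adjusted p = 7.92e-07) in Mut, and it reverses to 2.48, 2.97 and 4.49 with spike-in scaling. Sdf2l1, a partner of BiP and its J-domain proteins, had the largest difference among the chaperones in WT: 64.8 and 38.4 CPM in LSK against 430.4 and 491 in MPP, or -3.16 (SE 0.224, adjusted p = 3.96e-06) as a log2 difference. The same gene stood at -2.26 in KO and -1.94 in Mut, so it was lower in LSK in all 3 genotypes. Its CPM were 81.4 and 76.4 in LSK KO, 78.8 and 90.9 in LSK Mut, 364 and 393 in the MPP libraries labelled KO and 347 and 302 in MPP Mut.

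Dnajb11, another J-domain cochaperone, was in LSK at 87.2 and 48.9 CPM in WT, 81.1 and 78.1 in KO and 117 and 113 in Mut. Its MPP values were 242 and 274 CPM in WT, 269 and 239 in those labelled KO and 279.7 and 243 in Mut, above every LSK library. It was lower in LSK with -1.92, -1.67 and -1.18, and GRP94 (Hsp90b1) with -0.997, -1.10 and -1.17.

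The other chaperones were less even. Dnajc3, which encodes an inhibitor of PERK, and Manf were lower in LSK in WT only by the test (-1.53 and -1.997) and stood at -0.82 and -1.09 in KO and -0.77 and -1.06 in Mut, which missed the threshold with adjusted p between 0.0523 and 0.0944. Manf differed 3-fold between the LSK WT libraries (114 and 37.5 CPM). Hyou1 is the nucleotide exchange factor of BiP. In LSK it was at 7.28 and 36.8 CPM in WT, 21.7 and 15.5 in KO and 23.9 and 15.2 in Mut. In MPP it was at 79.9 and 69.4 CPM in WT, 62.3 and 66.5 in those labelled KO and 82.3 and 83.1 in Mut. It was called lower in WT (-1.75, SE 0.564, adjusted p = 0.0437) and in Mut (-2.08, SE 0.568, adjusted p = 0.045), but in Mut the adjusted p was between 0.126 and 0.247 when any 1 of its 4 libraries was left out. Creld2 and Dnajb9 were called in 0 genotypes. Dnajb9, which encodes a cochaperone that holds IRE1 in check, was at 43.2 to 63.5 CPM in LSK and 33.1 to 77.3 in MPP, so its populations overlapped.

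Both lectin chaperones and all 4 disulfide isomerases were lower in LSK in every genotype, again relative to the other genes. Calr was at 531 and 651 CPM in LSK WT, 847 and 806 in KO and 919 and 835 in Mut, and in MPP at 2691 and 2705 CPM in WT, 2619 and 2215 in those labelled KO and 2442 and 2369.8 in Mut. The log2 differences were -2.19, -1.55 and -1.46, and those of calnexin (Canx), its membrane-bound relative, were -0.68, -0.51 and -0.92. P4hb, the archetypal disulfide isomerase, was in LSK at 406 and 496 CPM in WT, 534 and 523 in KO and 645 and 703 in Mut. The MPP libraries had 2193 and 2315 CPM in WT, 1816 and 2049 in those labelled KO and 1972 and 2109 in Mut. Its difference was -2.32 (SE 0.107) in WT, -1.87 in KO and -1.60 in Mut. Pdia4 had 70.4 and 59.6 CPM in LSK WT, 121 and 125 in KO and 121 and 125 in Mut, and in MPP it had 336 and 314 CPM in WT, 278 and 247 in those labelled KO and 305 and 261 in Mut. Its difference was -2.32 in WT and -1.09 and -1.20 in KO and Mut. Pdia3, the isomerase that works with calnexin and calreticulin, ranged from -2.08 in WT to -1.14 in Mut, and Pdia6 from -1.35 to -1.10.

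**Figure D2:**
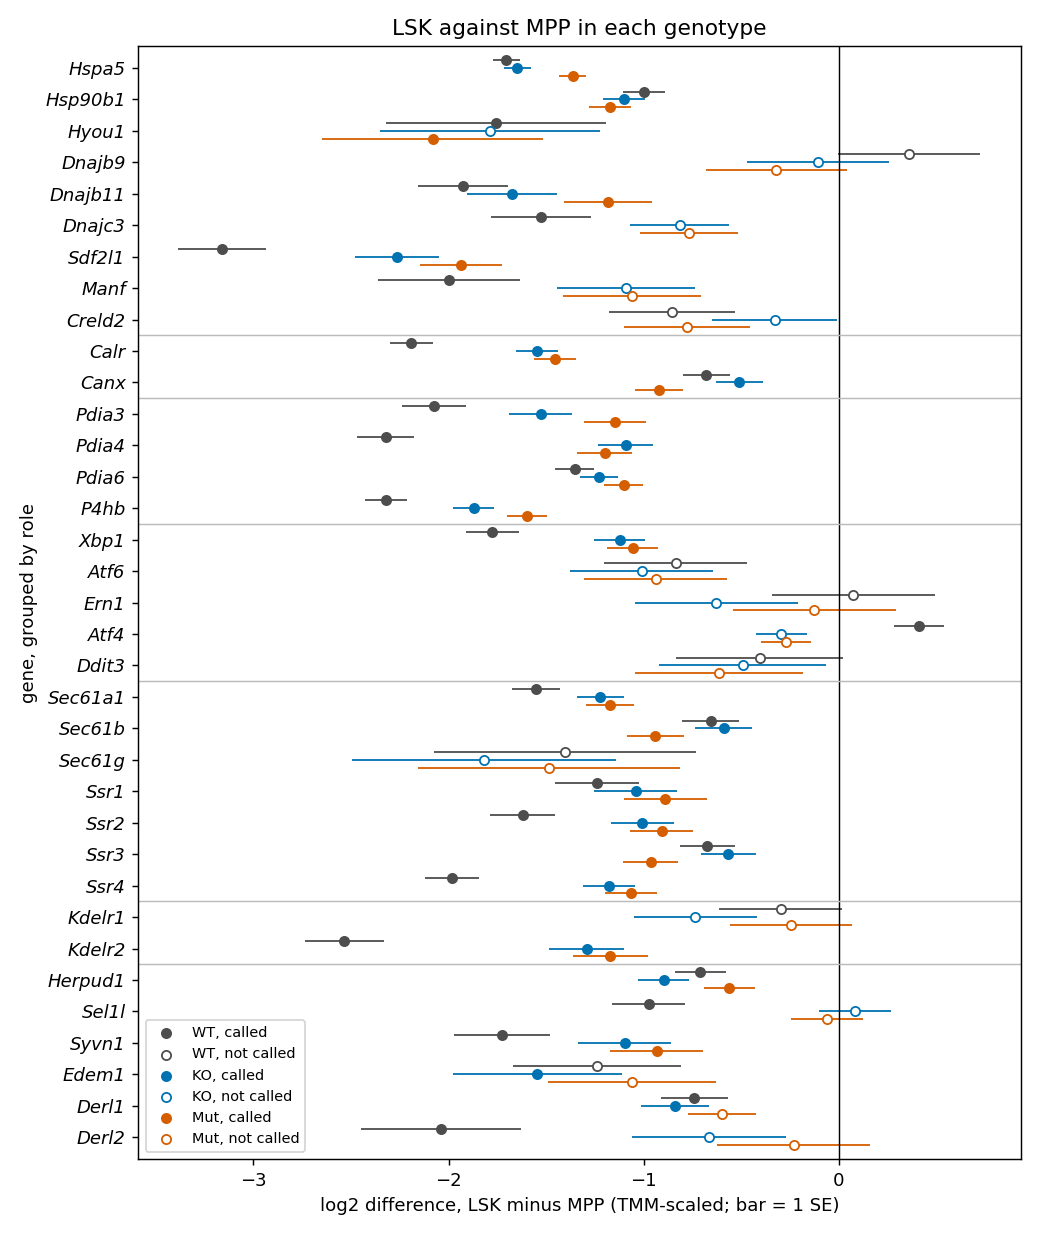
Log2 difference, LSK minus MPP, of each gene (rows, grouped by role) in WT, KO and Mut on the TMM scale, with 1 SE from the edgeR fit; filled points passed an adjusted p of 0.05. Most points lie left of 0, from -3.16 for Sdf2l1 in WT, and Atf4 in WT is the filled point on the right; with spike-in scaling all 35 genes lie right of 0 in each genotype.

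Among the sensors and transcription factors, Xbp1 was the 1 of 5 called lower in LSK. Xbp1, the transcription factor activated by IRE1 splicing, was at 106 and 91.5 CPM in LSK WT, 127 and 121 in KO and 174 and 159 in Mut. In MPP it was at 321 and 355 CPM in WT, 266 and 273 in those labelled KO and 366 and 325 in Mut. The log2 differences were -1.78 (SE 0.135, adjusted p = 5.91e-06), -1.12 (SE 0.132, adjusted p = 0.000237) and -1.06 (SE 0.132, adjusted p = 0.000558). Counts per gene do not separate its spliced from its unspliced form. In LSK Atf6 was at 36.6 and 36.4 CPM in WT, 35.6 and 29.7 in KO and 45.8 and 29.98 in Mut. In MPP it was at 42.9 and 87.7 CPM in WT, 61.4 and 70.0 in those labelled KO and 86.0 and 59.2 in Mut. Its differences of -0.84, -1.01 and -0.94 missed the threshold (adjusted p from 0.0925 to 0.147). In LSK Ern1 was at 23.3 and 34.2 CPM in WT, 21.2 and 38.3 in KO and 38.9 and 20.9 in Mut. The MPP values were 24.6 and 30.02 CPM in WT, 41.6 and 50.3 in those labelled KO and 35.1 and 30.1 in Mut, and its differences of 0.08, -0.63 and -0.12 were not called. The 2 populations overlapped for Ern1.

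Atf4, the transcription factor of the integrated stress response, was the member higher in LSK (chromosome 15, 80255184 to 80257541, plus strand). The LSK WT libraries had 529.8 and 542 CPM, above the 346 and 359.8 of KO, the 386 and 405 of Mut and every MPP library. In MPP the values were 361 and 444 in WT, 478 and 387 in the libraries labelled KO and 492 and 463 in Mut. The difference in WT was 0.41 (SE 0.129, adjusted p = 0.0391), and it missed the threshold without LSK WT replicate 1 (adjusted p = 0.0508), without LSK WT replicate 2 (0.0689) and without MPP WT replicate 1 (0.287). In KO and Mut it was -0.29 (SE 0.129, adjusted p = 0.162) and -0.27 (SE 0.129, adjusted p = 0.236). Ddit3, which encodes the stress factor CHOP, was in LSK at 15.3 and 35.6 CPM in WT, 32.5 and 21.5 in KO and 21.1 and 20.5 in Mut. In MPP it was at 28.8 and 38.8 CPM in WT, 39.1 and 37.0 in those labelled KO and 34.5 and 29.1 in Mut. Its differences (-0.41, -0.49 and -0.61) were not called. The span of Ddit3 overlaps that of Mars, and the strand setting of the counting is not given. Reads from a stretch shared with Mars may therefore not be told apart.

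The translocon and its partners were lower in LSK in all 3 genotypes except Sec61g, which was not called. Sec61a1, the channel of the translocon, was at 207 to 264 CPM in LSK and 499 to 637 in MPP, with differences of -1.55, -1.22 and -1.17. Sec61b stood at -0.66, -0.59 and -0.94. Of the TRAP subunits, Ssr4 had 93.1 and 89.7 CPM in LSK WT against 338 and 384 in MPP WT (-1.98, SE 0.138, adjusted p = 3.47e-06) and differences of -1.18 and -1.06 in KO and Mut. In LSK it was at 163 and 134 CPM in KO and 161 and 165 in Mut. In MPP it was at 327 and 347 CPM in the libraries labelled KO and 357 and 326 in Mut. Ssr1, Ssr2 and Ssr3 lay between -1.62 (Ssr2 in WT) and -0.57 (Ssr3 in KO). Sec61g, at the low level given above, was the one subunit of the 7 without a call.

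Of the KDEL receptors, Kdelr2 was lower in LSK in every genotype and Kdelr1 was not called; the difference between them was not tested. Kdelr2 (chromosome 5, 143403838 to 143421901, plus strand) was at 35.7 and 40.3 CPM in LSK WT, 50.8 and 62.4 in KO and 52.2 and 42.9 in Mut. In MPP it was at 199 and 241 in WT, 137 and 140.3 in the libraries labelled KO and 108 and 106 in Mut, so that the 3 MPP groups did not overlap one another and all lay above LSK. The difference between the populations was -2.53 (SE 0.202, adjusted p = 9.05e-06) in WT, -1.29 (SE 0.194, adjusted p = 0.00115) in KO and -1.17 (SE 0.193, adjusted p = 0.00341) in Mut. Kdelr1, its paralogue, was at 35.7 to 77.6 CPM in LSK and 67.2 to 84.4 in MPP and was not called (-0.30, -0.73 and -0.24). It overlaps Grin2d.

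Among the genes of ER-associated degradation, Herpud1 and Syvn1 were lower in LSK in every genotype. Syvn1, the HRD1 ubiquitin ligase, was at 27.0 and 28.1 CPM in LSK WT against 88.5 and 93.8 in MPP WT (-1.73, SE 0.244, adjusted p = 0.000497), and stood at -1.10 in KO and -0.93 in Mut. Herpud1 stood at -0.71, -0.90 and -0.56. Sel1l, the partner of HRD1, was lower in WT (-0.97, SE 0.187, adjusted p = 0.00338) and close to 0 in KO and Mut (0.08 and -0.06, adjusted p = 0.827 and 0.905). Its LSK level was 82.9 and 80.9 CPM in WT, 144 and 131 in KO and 142 and 111 in Mut. Derl2, a derlin of the channel, was at 9.29 and 23.4 CPM in LSK WT, 46.7 and 41.2 in KO and 59.9 and 44.7 in Mut and was called lower in WT alone (-2.04, SE 0.411, adjusted p = 0.0045). Derl1 was called in WT and KO (-0.74 and -0.84), and Edem1, which marks glycoproteins for disposal, in KO (-1.54).

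Members with ERSE or ERSE-II and those without were both mostly lower in LSK relative to the other genes. Of the 10 with either element, 9 were called lower in WT, 8 in KO and 8 in Mut, with medians of -1.44, -1.10 and -1.02. Of the 18 whose window held neither, 11, 10 and 9 were called, with medians of -1.24, -0.89 and -0.95. The 7 members without a window had 6, 4 and 4 calls. Over all genes tested, 13.7%, 8.14% and 5.21% were called lower in WT, KO and Mut, with medians of 0.00, 0.05 and 0.03. The counts and medians are given without a test of members with an element against those without.

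The genotypes were then compared within LSK, the question being whether loss or mutation of Tet2 went with a change in this machinery. For KO against WT, 0 of 35 members were called by edgeR, where 0.0456% of 13170 genes were called. A total of 6 members had an unadjusted p below 0.05 (13.8% of genes did), and DESeq2 called 3 higher and 1 lower (4.5% of genes). The members' median was 0.18 beside 0.00 for all genes. The lowest adjusted p values belonged to Atf4 (-0.62, SE 0.11, adjusted p = 0.163) and Pdia4 (0.90, SE 0.197, adjusted p = 0.194), which missed the threshold. By the CPM given above, Atf4 was lower in both KO libraries than in either WT library, and Pdia4 was higher in both. The member with the widest difference was Derl2 at 1.40 (SE 0.494, adjusted p = 0.305), whose LSK WT libraries were low and uneven. Hspa5 stood at 0.16 (SE 0.089, adjusted p = 0.477) and Xbp1 at 0.31 (SE 0.175, adjusted p = 0.481). Leaving out 1 LSK WT library raised the members called to 9 (without replicate 1, where 10.5% of genes were called) or 7 (without replicate 2, where 12% were), with Atf4 at an adjusted p of 0.0117 and 0.0143.

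For LSK Mut against WT, edgeR called 0 of 35 members and 1.28% of genes, 12 members had an unadjusted p below 0.05 (19.1% of genes) and DESeq2 called 8 higher and 1 lower (10.6% of genes). The median was 0.18 beside 0.01. Ssr4, at 93.1 and 89.7 CPM in WT and 161 and 165 in Mut, had the lowest adjusted p (0.82, SE 0.176, adjusted p = 0.0747). Hspa5 followed with 0.41 (SE 0.0892, adjusted p = 0.0758), its Mut libraries both above its WT libraries. Xbp1 (0.73), Pdia4 (0.91), Pdia3 (0.81), P4hb (0.56) and Calr (0.55) were on the same side with adjusted p between 0.0773 and 0.0961. Derl2 stood at 1.65 (SE 0.497, adjusted p = 0.151) and Atf4 stood at -0.46 (SE 0.11, adjusted p = 0.0939). Without LSK WT replicate 1 edgeR called 15 members (17.3% of genes) and without replicate 2 it called 10 (18.7% of genes), Hspa5 among them each time (adjusted p = 0.00846 and 0.0202). With spike-in scaling the median of all genes moved to 1.10 and 18 members were called higher beside 22.6% of genes, so these values too are relative to the other genes.

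For LSK KO against LSK Mut, 0 of the 35 members were called (0.0607% of genes), 5 had an unadjusted p below 0.05 (4.24% of genes) and DESeq2 called 0 (0.881% of genes). Hspa5 (-0.26, SE 0.089, adjusted p = 1) and P4hb (-0.35, SE 0.129, adjusted p = 1) had the lowest p. A p that misses the threshold does not show that values were alike.

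In LSK the granulocyte-monocyte progenitor list moved with these values. It summed to 2141 and 2553 CPM in the WT libraries, 4834 and 5159 in KO and 5986 and 6191 in Mut, with 1 of 10 genes called higher in KO and 3 of 10 in Mut, and 0 genes of the list at 0 in any LSK group. Mpo was at 1522 and 1638 CPM in WT, 3998 and 3823 in KO and 4662 and 4333 in Mut. Ribosomal RNA precursor (Rn45s) took 3.67% ± 0.0354, 2.49% ± 0.0292 and 1.04% ± 0.0802 of LSK counts in WT, KO and Mut, and the LSK WT libraries detected fewer genes (12470 and 12614) than the other LSK libraries (13561 to 14264). The part of these in the ER gene differences was not tested. For plasma cells, which also have a large ER, the 7 genes in the tables summed to 115 and 123 CPM in LSK WT, 57 and 58 in KO and 246 and 280 in Mut, with Jchain at 87.6 and 96.8 CPM in WT, 11.1 and 8.83 in KO and 194 and 234 in Mut, Tnfrsf17 at 0 in WT, and Irf4 at 0 in KO. The part of this list was not tested either.

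The other marker lists of cells that the sorts could hold are given by the range of their sums in LSK and then MPP. Eosinophil, basophil and mast cell genes had 453 to 595 and 7809 to 12909 CPM, neutrophil genes 41 to 169 and 1072 to 2311, and megakaryocyte-erythroid genes 482 to 772 and 2128 to 3222. T and NK cell genes had 236 to 436 and 1143 to 1547, and plasmacytoid dendritic cell genes 507 to 670 and 748 to 1038. B cell genes (49 to 69 and 49 to 80), macrophage genes (32 to 53 and 86 to 153) and stromal and endothelial genes (85 to 120 and 72 to 113) were low in both populations. Granulocytic lists thus lay on the MPP side, as the ER genes did. By their sums, so did the megakaryocyte-erythroid, T and NK cell, plasmacytoid dendritic cell and macrophage lists, without overlap between the populations. Single genes did not all follow these sums. Of the megakaryocyte-erythroid genes, 2 were higher in LSK and 4 lower in WT, 1 and 5 in KO, and 0 and 5 in Mut. For the plasmacytoid dendritic cell list these counts were 2 and 5, 2 and 3, and 1 and 3. Of 7 macrophage genes tested, 1 was lower in LSK in WT, and 0 were called in KO and Mut. The part of any of these lists in the difference between the populations was not tested.

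**Figure D3:**
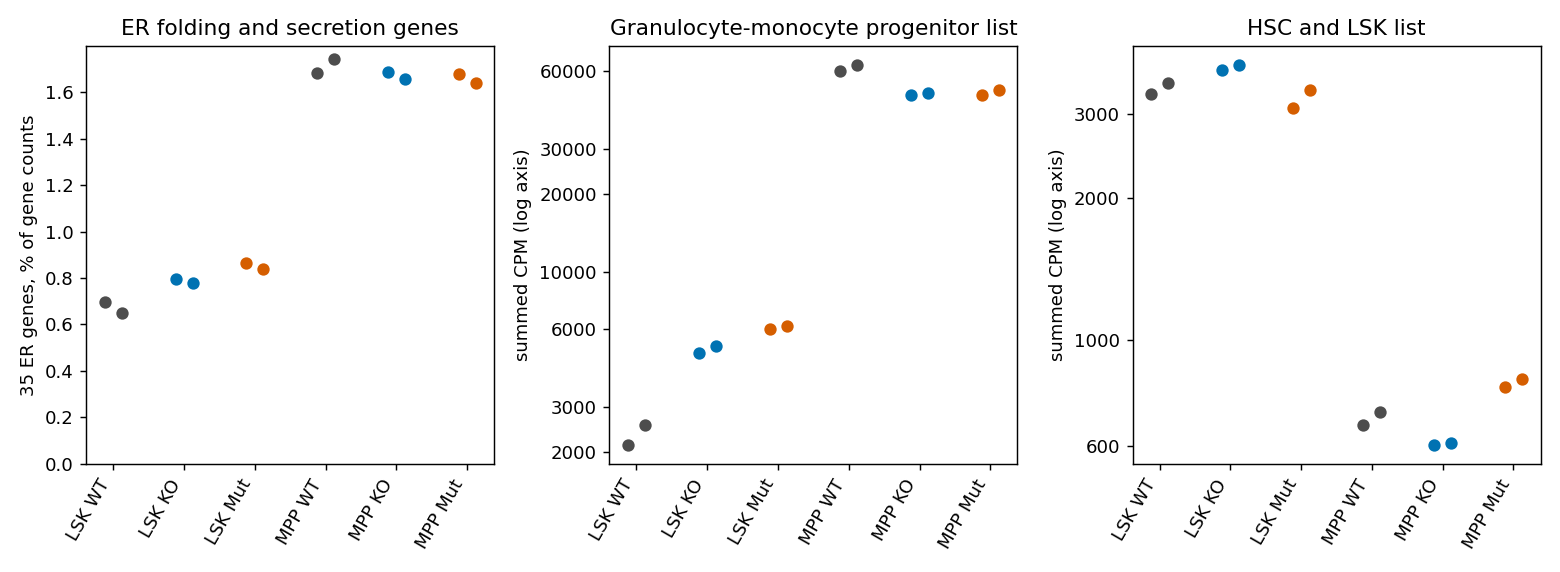
Share of gene counts taken by the 35 ER genes (left, linear axis) and summed CPM of the granulocyte-monocyte progenitor list (middle, log axis) and of the stem cell and LSK list (right, log axis) in each of the 12 libraries; points are libraries. The ER share runs from 0.649% to 0.865% in LSK and from 1.64% to 1.75% in MPP, and the granulocyte-monocyte list runs from 48324 to 63270 CPM in MPP.

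Within MPP, Kdelr2 was the called member. For Mut against WT it was lower by 2.06-fold, or -1.04 (SE 0.14, adjusted p = 0.0307) on the log2 scale, and was the 1 of 35 members called (0.224% of 12947 genes were called). Its Mut libraries (108 and 106 CPM) lay below its WT libraries (199 and 241), and DESeq2 gave an adjusted p of 7.81e-08. The edgeR call was lost without MPP WT replicate 2 (adjusted p = 0.13), without MPP Mut replicate 1 (0.204) and without MPP Mut replicate 2 (0.187), and when the spread came from the 4 libraries of the comparison (0.129). Sdf2l1, called by DESeq2 only (adjusted p = 0.00402), was at 430.4 and 491 CPM in WT and 347 and 302 in Mut (-0.51, SE 0.111, adjusted p = 0.197). Hspa5, at 0.09, and Xbp1, at 0.03, were not called. The median of the members was -0.10 beside -0.0027 for all genes. With spike-in scaling the median of all genes moved to -0.59, and 22 members were called lower beside 17.6% of genes.

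For the MPP libraries labelled KO against WT, 0 of 35 members were called by edgeR (0.363% of genes), 10 had an unadjusted p below 0.05 (8.47% of genes) and DESeq2 called 1 (2.1% of genes). That one was Kdelr2, whose edgeR difference of -0.67 (SE 0.14, adjusted p = 0.156) missed the threshold. P4hb came next with -0.23 (SE 0.0677, adjusted p = 0.366). Hspa5 and Xbp1 stood at 0.12 and -0.33, on opposite sides of 0. The median was -0.10 beside -0.01.

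For the MPP libraries labelled KO against Mut, 0 members were called (0.239% of genes), 4 had an unadjusted p below 0.05 (9.48% of genes) and DESeq2 called 0 (2.22% of genes). Xbp1 (-0.36, SE 0.106, adjusted p = 0.349) and Ssr1 (0.23, SE 0.076, adjusted p = 0.409) had the lowest p. Ssr1, a TRAP subunit, was in MPP at 532 and 541 CPM in WT, 553 and 543 in those labelled KO and 467 and 467 in Mut. In LSK it was at 296 and 159 CPM in WT, 260 and 273 in KO and 247 and 258 in Mut. With spike-in scaling the median of all genes moved to 0.65 and 24 members were called higher beside 25% of genes. The KO libraries of Xbp1 both lay below those of Mut in the CPM given above. In MPP the granulocyte-monocyte progenitor list summed to 60083 and 63270 CPM in WT, 48372 and 49053 in the libraries labelled KO and 48324 and 50711 in Mut, and the eosinophil, basophil and mast cell list to 11810 and 12909, to 7809 and 8418 and to 8710 and 9131 in these groups. The neutrophil list summed to 2046 and 2148 CPM in MPP WT, to 2260 and 2311 in the libraries labelled KO and to 1072 and 1077 in Mut. For Mut against WT 3 of its 8 genes were lower, among them Camp at -2.77 (adjusted p = 0.00657). Of the eosinophil, basophil and mast cell list 4 genes were lower in the libraries labelled KO than in WT. For Mut against WT that list split, with Epx (-1.33, adjusted p = 0.000283) and Prg2 (-1.21, adjusted p = 0.000346) lower and Mcpt8 (0.60, adjusted p = 0.0117) and Fcer1a (0.74, adjusted p = 0.0307) higher. The progenitor list and the eosinophil, basophil and mast cell list were highest in WT by their sums, as Kdelr2 was, with 0 of their genes at 0 in MPP. The part of these 3 lists in the Kdelr2 differences was not tested.

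**Figure D4:**
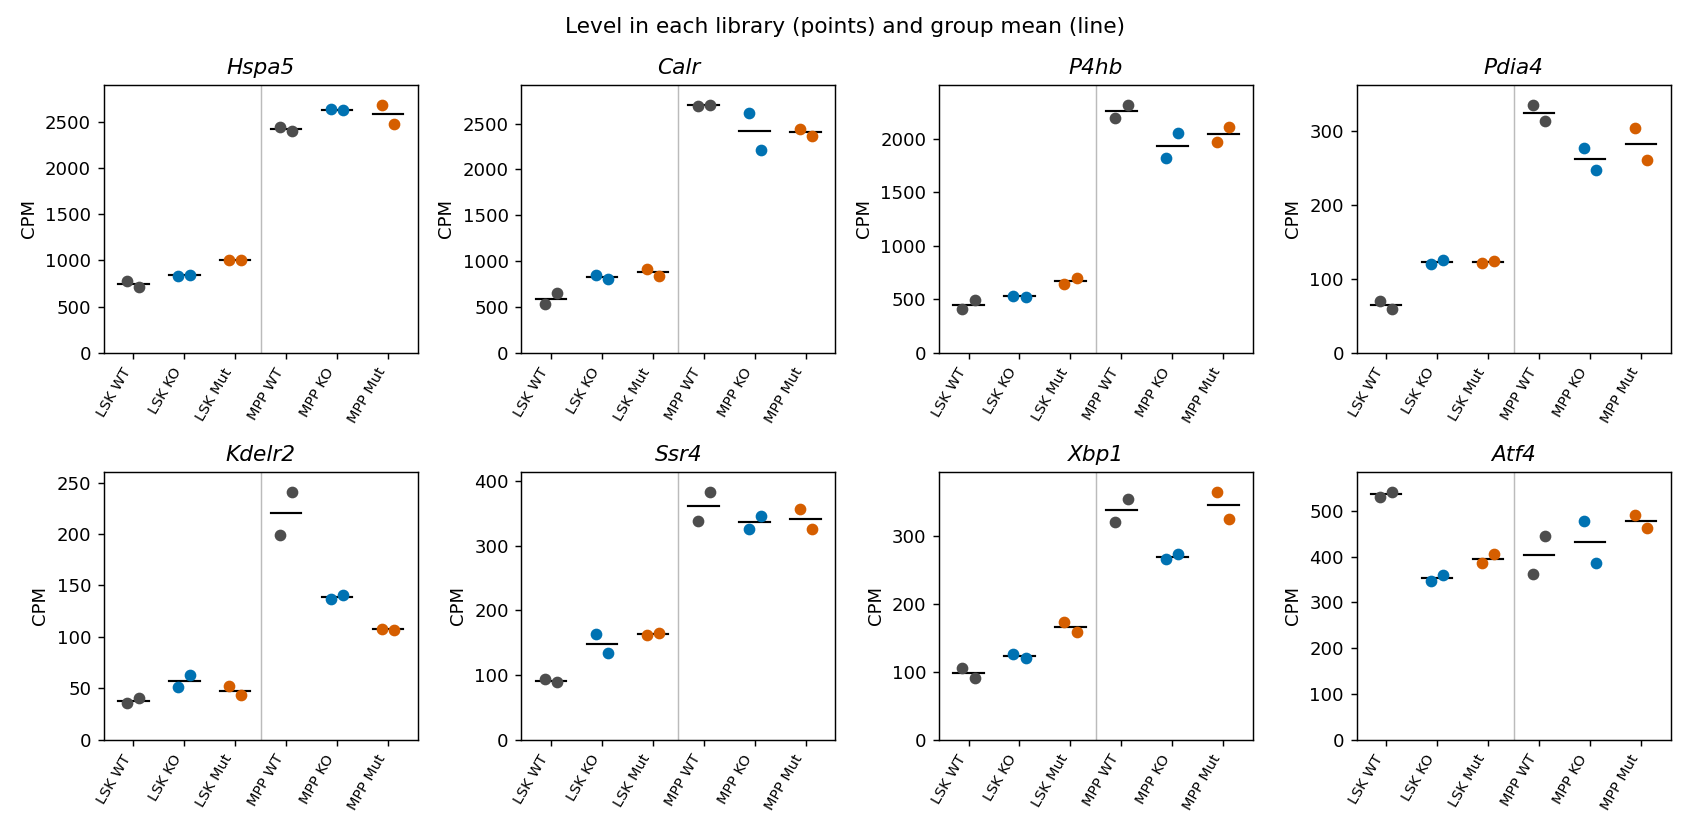
CPM of 8 genes in the 12 libraries (points, 2 per group) with the group mean (line), every axis starting at 0. Kdelr2 steps down from MPP WT to the MPP libraries labelled KO and to Mut, Pdia4 and Ssr4 are lowest in LSK WT, and Atf4 is highest there; with spike-in scaling all 8 are higher in LSK.

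Whether a genotype effect differed between the populations was tested as an interaction, coded as the effect in LSK minus that in MPP. The interaction comes from the fit of all 12 libraries. Effects within a population come from the fit of its own 6, so the values do not subtract exactly. For KO against WT, 1 of 35 members was called, Pdia4 with 1.23 (SE 0.199, adjusted p = 0.0319), where 0.727% of 14033 genes were called. Its KO effect was 0.90 in LSK and -0.31 in MPP. The call was lost without any 1 of the 6 libraries outside LSK WT, with adjusted p from 0.0849 to 0.157. With spike-in scaling it was also lost (adjusted p = 0.213). The members' median was 0.20 beside 0.08 for all genes, which spike-in scaling moved to 0.51.

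For Mut against WT, 5 members were called and all 5 had a positive interaction, where 2.53% of genes were called in either direction. Kdelr2 had 1.36 (SE 0.272, adjusted p = 0.027), beside an effect of 0.30 in LSK and -1.04 in MPP. Pdia4 had 1.12 (SE 0.199, adjusted p = 0.0169), beside 0.91 and -0.20, and Ssr4 had 0.92 (SE 0.188, adjusted p = 0.0297), beside 0.82 and -0.08. Calr and P4hb, the most abundant members per kilobase, had 0.73 (SE 0.149, adjusted p = 0.029) and 0.72 (SE 0.144, adjusted p = 0.027). All 5 thus stood higher in Mut than in WT in LSK and lower in MPP, in comparisons of which Kdelr2 in MPP alone passed the test. Without any 1 of the 6 libraries of LSK Mut, MPP WT or MPP Mut 0 of the 5 were called, and without LSK WT replicate 1 or 2 edgeR called 14 and 9 members, beside 8.72% and 9.58% of genes. Hspa5 stood at 0.34 (SE 0.096, adjusted p = 0.0978), Xbp1 at 0.72 (SE 0.185, adjusted p = 0.0707) and Atf4 at -0.68 (SE 0.182, adjusted p = 0.081). The members' median was 0.34 beside 0.08, which spike-in scaling moved to 1.74, with 28 members called higher beside 38.6% of genes.

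The granulocyte-monocyte genes had interactions in the same direction, with 5 of 10 called positive for KO and 7 of 10 for Mut (Mpo at 1.62 (adjusted p = 3.33e-07) and 1.69 (adjusted p = 3.17e-07)). Their part in the ER gene interactions was not tested. Between KO and Mut the interaction was called for 0 of 35 members (0.0641% of genes), 2 had an unadjusted p below 0.05 (6.38% of genes) and DESeq2 called 0 (0.848% of genes). The lowest p were those of Hspa5 (-0.28, SE 0.096, adjusted p = 0.631) and Canx (0.41, SE 0.17, adjusted p = 0.743). Canx was in LSK at 624 and 494 CPM in WT, 744 and 654 in KO and 560.3 and 542 in Mut, and in MPP at 844 and 944 CPM in WT, 1044 and 948 in those labelled KO and 1009 and 1076 in Mut.

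**Figure D5:**
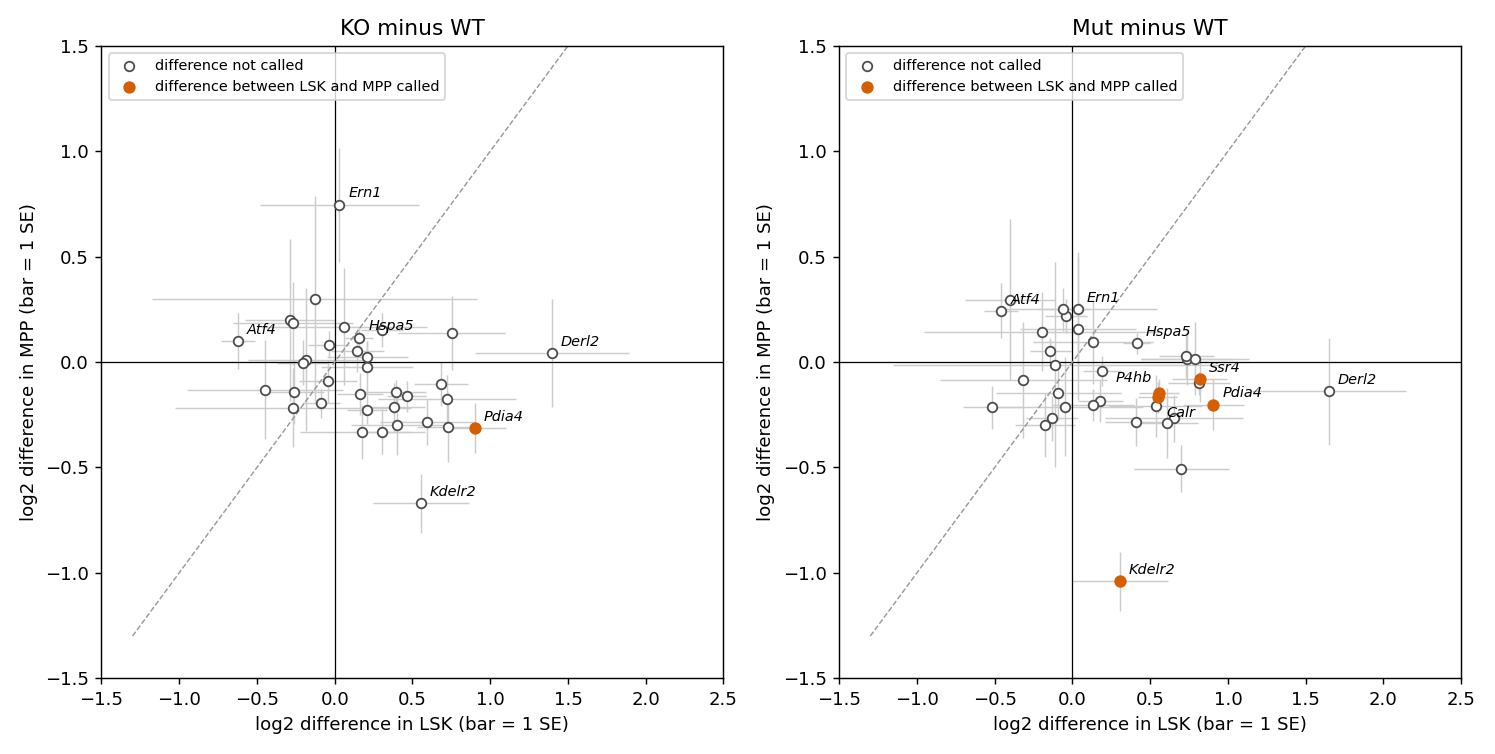
Log2 effect of KO (left) and Mut (right) against WT in LSK (horizontal) and MPP (vertical) for each of the 35 genes, with 1 SE; the dashed line marks equal effects, and filled points are genes whose difference between the populations passed an adjusted p of 0.05. Pdia4 is the filled point for KO, and Kdelr2, Pdia4, Ssr4, Calr and P4hb, right of and below 0, are those for Mut.

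Neighbouring steps of the secretory route were described by gene lists with no member of the set. Of 38 genes for ER-Golgi coats and cargo receptors, 25 were lower in LSK and 1 was higher in WT, 16 lower in KO and 14 in Mut, relative to the other genes. Surf4, a cargo receptor, was at 85.5 and 135 CPM in LSK WT and 607 and 639 in MPP WT, a log2 difference of -2.49 (adjusted p = 4.59e-06), and Tmed3 stood at -1.98 (adjusted p = 3.27e-06). Of 15 genes of the oligosaccharyl transferase, which attaches glycans to entering proteins, 10, 7 and 7 were lower and 0 higher. Its subunit Ddost was lower in all 3 genotypes (-2.04, adjusted p = 1.65e-07 in WT) and higher in LSK Mut than in LSK WT (0.75, adjusted p = 0.0419). Of 18 genes of signal recognition, translocation and signal peptidase, 8, 6 and 6 were lower and 1 was higher, in KO. Spcs3, a signal peptidase subunit, stood at -1.97 (adjusted p = 1.83e-06) in WT.

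The PERK, ATF6 and IRE1 lists had calls in both directions. Of 29 genes of PERK and the integrated stress response, 8 were lower and 5 higher in WT, 10 and 3 in KO, and 3 and 3 in Mut, with Eif2s1, the alpha subunit of the initiation factor that PERK phosphorylates, at -1.79 (adjusted p = 5.66e-06) in WT and Vldlr at 3.80 (adjusted p = 0.000335). Of 12 genes of ATF6 processing and the CREB3 family, 1 was lower and 1 higher in WT and in KO, and 0 and 1 in Mut. Of 10 IRE1 partners and targets, 3, 1 and 1 were lower and 1, 1 and 0 higher, among them Serp1 at -2.27 (adjusted p = 0.000248) in WT. The glycan quality control and oxidative folding list had 13, 7 and 6 of 33 genes lower and 2, 2 and 0 higher, with the oxidase Ero1l at -2.20 (adjusted p = 0.000167). The other genes of ER-associated degradation had 10, 4 and 3 of 22 lower and 0 higher. In LSK, Edem2 was higher in Mut than in WT (1.14, adjusted p = 0.0313), as was Copg2 of the COPI coat (2.51, adjusted p = 0.0438), while the other genes of these 8 lists apart from Ddost were not called for Mut against WT. In the remaining genotype comparisons within a population 0 genes of these lists were called. For the KO interaction 2 coat and cargo genes, 2 of signal recognition and translocation and 1 of the oligosaccharyl transferase were called and positive, and Ppp1r15a of the integrated stress response, which directs dephosphorylation of eIF2 alpha, was called and negative (-0.83, adjusted p = 0.0373). For the Mut interaction these counts were 4, 2 and 1 positive, with 2 positive genes of the integrated stress response list and 1 of ER-associated degradation, Edem2. Surf4 had 1.26 (adjusted p = 0.0453) for KO and 1.39 (adjusted p = 0.0164) for Mut, and Ddost had 0.84 (adjusted p = 0.0278) and 1.01 (adjusted p = 0.00388). In the 3 other lists 0 genes were called for either interaction. These counts describe lists chosen with results of these data known, without a test of the list.

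Immediate early genes and cytosolic heat shock genes, which respond to handling and stress of cells, were set beside the ER genes. For LSK against MPP 9 of 24 immediate early genes were higher and 0 lower in WT, 5 and 1 in KO, and 1 and 2 in Mut. For LSK Mut against WT 3 were lower (Nr4a1 at -1.56, adjusted p = 0.0108), and for MPP Mut against WT 3 were higher (Fos at 0.48, adjusted p = 0.00268). Of 15 heat shock genes 5, 4 and 4 were lower in LSK and 1, 1 and 0 higher, with Hspa1a at -1.61 (adjusted p = 0.000613) in WT. In the MPP libraries labelled KO 2 heat shock genes were higher than in WT, and in Mut 1 was, Hspa8 at 1.06 (adjusted p = 0.00779). Hspa8, the constitutive cytosolic Hsp70, was also higher in LSK Mut than in LSK WT (1.36, adjusted p = 0.0292). For the KO and Mut interactions 1 and 6 immediate early genes were called and negative, and 0 heat shock genes were called. In the MPP libraries labelled KO 3 immediate early genes and 1 heat shock gene were lower than in Mut. The part of these responses in the ER gene differences was not tested.

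Among the 5099 other genes with a mean of at least 50 CPM, the 5 non-members whose CPM followed Hspa5 most closely over the 12 libraries were Alas1 (Pearson r 0.994), Ms4a3 (0.994), Anxa1 (0.993), Rrm2 (0.99) and Ppm1g (0.989). Alas1, the first enzyme of haem synthesis, was at 82.2 and 68.1 CPM in LSK WT and 851 and 930.2 in MPP WT, and Ms4a3, a marker of granulocyte-monocyte progenitors, at 36.7 and 41.4 and 1494 and 1561. P4hb (0.987) was the closest member. The libraries form 2 clusters, LSK and MPP, so that these coefficients describe the contrast between populations that all these genes share, and no p is given for them.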

How the data were processed

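RNA-seq of LSK and MPP cells gave 12 libraries in 6 groups of 2 technical libraries, each genotype from 1 pool of 2 mice. The authors deposited raw counts per gene in one table per population, as whole numbers. Per the submitters' processing notes the tools were Trim Galore 0.4.1, TopHat2 2.0.13, HTSeq 0.6.1 and Cufflinks, with build mm10; their roles, the annotation and the strand setting of the counting are not given in the sources used here. The MPP column taken as KO replicate 2 differs in its prefix from that sample's title and was matched by the rest of the name. Gene counts per library were 9181027 to 23532847. The 92 spike-in rows were kept out of library sizes and tests.

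Counts were tested with the quasi-likelihood test of edgeR 4.0.16 in R 4.3.3 with TMM scaling and Benjamini-Hochberg adjustment over all genes tested. Genotypes were compared within a population over its 6 libraries (3 residual degrees of freedom). Populations and interactions were fitted over all 12 (6 degrees of freedom). Genes with a low count were removed by filterByExpr (minimum count 10, minimum total 15), which left 13170 genes in LSK, 12947 in MPP and 14033 in all. CPM values are counts scaled to 1000000 per library on the TMM-scaled library sizes of the fit to all 12. Alternatives were DESeq2 1.42.0, RLE and spike-in scaling, no filter, a replicate block, the spread of 2 groups, and leaving out each library. The 2 libraries of every group differed by more than sampling noise (chi-square per degree of freedom 22.8 to 85.8), so they were not treated as 1 library deposited more than once. They remain technical libraries of 1 pool, and p-values measure only the spread between them.

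The members and the gene lists were chosen with earlier results of these data known. Given with every library are Hspa5, the sensors and factors, and per comparison up to 5 called members per direction with the largest difference, or, where 0 were called, the 2 with the lowest p; other members are described by role. Of each related list up to 3 called genes with the lowest p could be named, and of non-members the 5 most like Hspa5 by Pearson correlation of log2(CPM + 1). Positions are those of GENCODE M21 on GRCm38, and promoters are RefSeq windows of GRCm38.p6. Members whose span overlaps that of another coding gene are Ddit3 (Mars), Pdia3 (Catsper2), Pdia6 (Atp6v1c2), Manf (Dcaf1 and Rbm15b), Kdelr1 (Grin2d), Syvn1 (Mrpl49) and Derl2 (Mis12). Reads from a shared stretch may not be told apart without strand. Whether exons overlap, and on which strand, was not checked.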

Additional observations from a re-analysis of the deposited data

Results flagged for a closer look

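For 6 results the genotype effect differed between LSK and MPP in the interaction test (edgeR, over 14033 genes). The KO effect on Pdia4 was 0.90 in LSK and -0.31 in MPP, each from the fit of its own population. The difference in the fit of both populations was 1.23 (SE 0.199, adjusted p = 0.0319). For the Mut effect the differences were 1.36 (SE 0.272, adjusted p = 0.027) for Kdelr2, 1.12 (SE 0.199, adjusted p = 0.0169) for Pdia4, 0.92 (SE 0.188, adjusted p = 0.0297) for Ssr4, 0.73 (SE 0.149, adjusted p = 0.029) for Calr and 0.72 (SE 0.144, adjusted p = 0.027) for P4hb. All 6 were positive, so the effect stood higher in LSK than in MPP. LSK WT is the group whose libraries differed most from each other, and its libraries enter each of these differences. None of the 6 was called without any 1 of the 6 libraries outside LSK WT that enter it, and their part was not tested further.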

How the results depend on the processing

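Of the 12 counts of called members, all 12 stayed within 1.5 times of the main count with DESeq2's size factors in edgeR (RLE scaling). DESeq2 itself called 4 members for LSK KO against WT and 9 for LSK Mut against WT, beside 593 and 1398 of 13170 genes. It called 1 for MPP KO against WT and 2 for MPP Mut against WT, beside 272 and 302 of 12947 genes. For the KO and Mut interactions it called 6 and 12, beside 580 and 1093 of 14033 genes. Without the filter on low counts the counts were 5 for LSK Mut against WT, 1 for MPP KO against WT and 2 for MPP Mut against WT. For the KO and Mut interactions they were 3 and 9. The shares of all genes called without the filter are not given here, so these counts are not read against them. With the spread taken from the 2 groups compared, MPP Mut against WT had 0. With spike-in scaling 18 members were called for LSK Mut against WT, 22 for MPP Mut against WT, 24 for MPP KO against Mut, 35 for LSK against MPP in each genotype, and 0 and 28 for the KO and Mut interactions. Leaving out 1 library gave 0 to 9 members for LSK KO against WT, 0 to 15 for LSK Mut against WT, 0 to 1 for MPP Mut against WT, 0 to 11 for the KO interaction and 0 to 14 for the Mut interaction; LSK against MPP gave 23 to 28, 17 to 18 and 15 to 17 in WT, KO and Mut. Shares of all genes called in these refits are given above for some of those without 1 LSK WT library, and not for the others. Leaving out both LSK WT libraries was chosen after seeing the data. It gives values only for the 4 comparisons that do not use them, where it changed 0 of 24 gene results. Results that use LSK WT cannot be run this way.

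Spike-in scaling turned 31 of 50 gene results. For LSK against MPP in WT the log2 values became Sdf2l1 0.996, Kdelr2 1.66, Pdia4 1.86, P4hb 1.88, Calr 2.01, Hspa5 2.48, Xbp1 2.40, Atf6 3.33 and Ddit3 3.82. In KO they became Sdf2l1 2.35, P4hb 2.74, Dnajb11 2.94, Hspa5 2.97, Calr 3.07, Xbp1 3.49, Atf6 3.60, Ern1 4.003, Atf4 4.33 and Ddit3 4.11. In Mut they became Hyou1 3.69, Sdf2l1 3.94, P4hb 4.28, Calr 4.38, Hspa5 4.49, Xbp1 4.78, Atf6 4.83, Ern1 5.61, Atf4 5.59 and Ddit3 5.23. Xbp1 in MPP KO against Mut became 0.29 and the KO minus Mut interaction of Canx -0.83. Without single libraries, uncalled values changed sign: Ern1 ran from -0.23 to 0.32 in WT and from -0.64 to 0.26 in Mut, and Ddit3 from -1.14 to 0.074 in WT. The cause was not tested.

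The replicate numbers did not pair the samples: over 15 pairs of groups the correlation of deviations ran from -0.051 to 0.045. With a replicate block 0 members were called for MPP Mut against WT, 0 for the KO interaction and 2 for the Mut interaction. The other 9 counts stayed within 1.5 times. The shares of all genes called with the block are not given here. Depth limits low genes such as Sec61g: 3 counts equal 0.127 to 0.327 CPM, a floor for counting error only. With 2 libraries of 1 pool per group, differences between mice cannot be judged.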
